A study of Mus musculus with 4 samples.

Results

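The FGF-ERK feedback and target genes described here were 10 genes found by their symbols: *Spry1*, *Spry2*, *Spry4*, *Spred1*, *Spred2*, *Dusp4*, *Dusp6*, *Etv1*, *Etv4* and *Etv5*. Each of the 10 was found once among the 45802 gene symbols of the deposited table, and all 10 had a value in every library, as did 14415 symbols in all. The study sorted periosteal cells of mice by a PDGFRα reporter and compared total RNA of 2 PDGFRα reporter+ libraries with 2 PDGFRα reporter- libraries. In these mice a CreER driven by *Pdgfra* turns the mT/mG allele from membrane tdTomato to membrane GFP after tamoxifen, so that PDGFRα reporter+ cells were mGFP+ and PDGFRα reporter- cells were mTdTomato+. Both populations came from male mice 9 to 10 weeks old, given 5 daily doses of tamoxifen at 150 mg/kg and their cells were taken 14 days later. By the methods of the paper, the periosteal cells were first grown in medium with 15% FBS and 10 ng/mL bFGF. After 1 passage both populations were sorted as negative for CD31, CD45 and Ter119, and their RNA was analyzed straight after the sort. By the sample records, each library pooled the cells of 3 to 6 mice. The paper gives a higher range of mice for a single cell population. The headings of the table number the libraries 2# and 3# in each population, and these numbers, which are in no sample label, are used below as names. Nothing in the labels says whether libraries of one number share animals or a preparation, so p-values measure the spread between these libraries. That spread includes the difference between 2# and 3# within each population, which the main test did not take out.

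FGF2, also called bFGF, binds FGF receptors and starts the RAS-RAF-MEK-ERK cascade, which keeps mesenchymal progenitor cells of bone dividing in culture. Active ERK switches on genes that in turn weaken it: Sprouty and Spred proteins act on the path from the receptor through RAS to RAF, and dual-specificity phosphatases remove the activating phosphates from ERK. The PEA3 group of ETS transcription factors is switched on by FGF signaling in many tissues and activates further targets. Transcripts of these genes are therefore widely used as readouts of FGF-ERK signaling, and in these libraries every cell had been given the ligand in the medium.

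The scale of the table bounds what can be read from it. Values are log2 signals on one shared scale, with a lower quartile of -1.47, a median of 1.48 and an upper quartile of 3 in each library. The unit under the logarithm is not given in the sources used here, and it is not known whether values are per transcript length, so values are compared between libraries and not between genes. The depth of the libraries is unknown. *Pdgfra*, whose promoter drives the reporter, was 7.78 and 7.62 in the PDGFRα reporter+ libraries 2# and 3# and 7.87 and 7.44 in the PDGFRα reporter- libraries. It did not separate the populations, with a log2 fold change of 0.05 ± 0.24 (SE, limma adjusted p = 1), where the fold change is the PDGFRα reporter+ mean minus the PDGFRα reporter- mean. All 10 stromal markers checked were present in every library, *Col1a2*, a chain of type I collagen, at 8.47 to 9.07. Not all were steady. *Lum* was 5.96 and 6.04 in the PDGFRα reporter+ libraries 2# and 3# against 4.61 and 3.73, and *Postn* was -1.13 and 2.04 against 0.14 and 3.04. Both PDGFRα reporter+ libraries were above both PDGFRα reporter- libraries in 2 (7.59% of all genes) and below in 1 (8.1%). Both libraries 3# were above both libraries 2# in 2 (36.4% of all genes) and below in 5 (28.8%). In such bulk samples, fewer cells of a type and less RNA per cell cannot be told apart.

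The start regions of 3 members are printed because these genes show the 3 patterns described below: *Dusp6* kept its populations apart, *Spry1* had the widest range over the libraries, and *Spry2* was the member that was lower in both libraries 3# than in both libraries 2#. Each is the 250 bases before the transcription start, 5′ to 3′ on the strand of the gene, from RefSeq on GRCm38.p6. Capitals mark GGAAG on either strand, the core of sites that ETS factors bind.
*Dusp6*, chr10:99262981-99263230, + strand: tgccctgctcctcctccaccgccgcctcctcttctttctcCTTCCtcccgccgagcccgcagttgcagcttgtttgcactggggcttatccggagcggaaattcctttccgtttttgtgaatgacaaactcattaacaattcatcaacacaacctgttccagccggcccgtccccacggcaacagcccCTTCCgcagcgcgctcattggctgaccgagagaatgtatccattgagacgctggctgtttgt
*Spry1*, chr3:37639697-37639946, + strand: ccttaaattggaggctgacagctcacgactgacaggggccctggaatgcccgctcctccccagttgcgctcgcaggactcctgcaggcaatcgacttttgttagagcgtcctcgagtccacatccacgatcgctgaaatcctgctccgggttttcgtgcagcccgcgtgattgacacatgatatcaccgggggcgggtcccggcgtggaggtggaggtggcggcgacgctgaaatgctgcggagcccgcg
*Spry2*, chr14:105896820-105897069, - strand: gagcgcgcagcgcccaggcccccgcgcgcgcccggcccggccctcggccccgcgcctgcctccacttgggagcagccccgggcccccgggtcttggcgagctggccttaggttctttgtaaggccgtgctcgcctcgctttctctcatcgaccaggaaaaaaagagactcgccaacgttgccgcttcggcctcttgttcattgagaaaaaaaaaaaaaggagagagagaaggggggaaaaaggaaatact
*Dusp6* held GGAAG 2 times, both on the opposite strand, and *Spry1* and *Spry2* held none. RefSeq windows were matched for 7 members (9 windows), and those of *Spry4*, *Dusp4* and *Etv4* were not used here. GGAAG was in 5 of the 9 windows and in 64.1% of all 32851 windows of this length. The longer ETS motif CCGGAAGT, which contains GGAAG, was in none of the 9 and in 2.88% of all. The AP-1 motif TGANTCA was in none of the 9 and in 6.75% of all, and the CRE TGACGTCA was in none of the 9 and in 1.55% of all. A match to these letters is a description of the sequence and says nothing of binding in these cells.

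The plot of the members by library shows the values on which all comparisons rest. No member passed the limma test between the populations, and every log2 fold change was below 0.

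**Figure D1:**
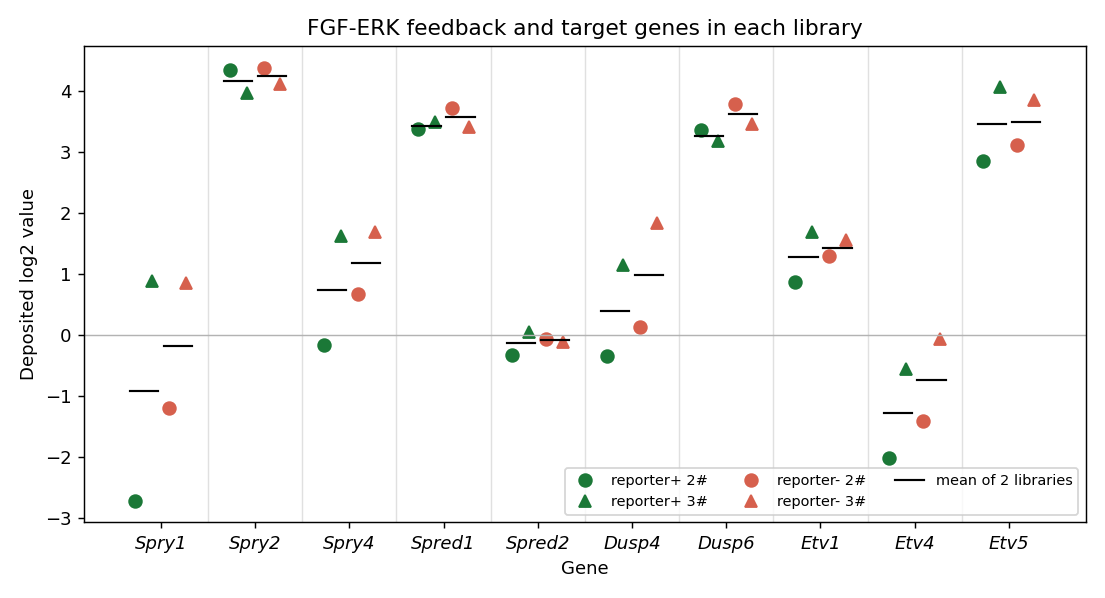
Deposited log2 values (vertical axis) of the 10 genes in the PDGFRα reporter+ (green) and PDGFRα reporter- (red) libraries numbered 2# (circles) and 3# (triangles), with the mean of the 2 libraries of each population as a black line. Circles and triangles of *Spry1*, *Spry4*, *Dusp4*, *Etv1*, *Etv4* and *Etv5* are apart in both populations, and only *Dusp6* has both green points below both red points.

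The Sprouty genes encode inhibitors that are made in response to FGF and dampen signaling from the receptor to ERK. *Spry1* (ENSMUSG00000037211, chr3:37639947-37644598, + strand of GRCm38) had a log2 value of -2.72 in the PDGFRα reporter+ library 2# and 0.89 in 3#, against -1.20 and 0.85 in the PDGFRα reporter- libraries 2# and 3#. Both libraries 2# were low and both libraries 3# high, and the populations overlapped. The means were -0.91 ± 2.55 and -0.17 ± 1.45 (SD, n = 2 each), and the log2 fold change was -0.74 ± 1.42 (SE) with a 95% interval of -4.53 to 3.05. The difference was -1.52 between the libraries 2# and 0.04 between the libraries 3#, so that it lay in the libraries 2# alone. The annotation places the gene model *Gm42922* on the opposite strand within *Spry1*, and the table has no value for it.

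*Spry2* (chr14:105891947-105896819, - strand) varied less than *Spry1* and *Spry4*. Its log2 values were 4.36 and 3.98 in PDGFRα reporter+ libraries 2# and 3# and 4.39 and 4.12 in PDGFRα reporter- libraries. The populations overlapped, and the log2 fold change was -0.09 ± 0.20 (SE), with a 95% interval of -0.63 to 0.45. *Spry4* (chr18:38586247-38601415, - strand) was -0.16 and 1.63 in the PDGFRα reporter+ libraries and 0.67 and 1.69 in the PDGFRα reporter- libraries. As with *Spry1*, the PDGFRα reporter+ library 2# was the lowest, both libraries 3# were close to each other, and the difference was -0.83 within 2# and -0.06 within 3#. Its log2 fold change was -0.45 ± 0.73 (SE). Within this family, then, *Spry1* and *Spry4* had their low values in the libraries 2# while *Spry2* was slightly higher there.

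Spred proteins are relatives of the Sproutys that recruit the RAS inhibitor neurofibromin to the membrane. *Spred1* (chr2:117121374-117182279, + strand) was 3.38 and 3.50 in the PDGFRα reporter+ libraries 2# and 3# and 3.73 and 3.42 in the PDGFRα reporter- libraries. The populations overlapped, since the PDGFRα reporter- library 3# lay between the PDGFRα reporter+ libraries. The log2 fold change was -0.13 ± 0.17 (SE), and the difference was -0.35 within 2# and 0.08 within 3#. *Spred2* (chr11:19924375-20024026, + strand) was -0.32 and 0.05 against -0.07 and -0.11, with both PDGFRα reporter- libraries inside the range of the PDGFRα reporter+ ones. Its log2 fold change was -0.04 ± 0.32 (SE). These were, with *Spry2* and *Dusp6*, the members that differed least between the numbers, by -0.09 for *Spred1* and 0.17 for *Spred2* (3# minus 2#, log2).

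*Dusp6* encodes MKP-3, a cytoplasmic phosphatase specific for ERK. The gene (ENSMUSG00000019960, chr10:99263231-99267489, + strand) starts just after the *Dusp6* sequence printed above. Its log2 values were 3.37 and 3.18 in PDGFRα reporter+ libraries 2# and 3# and 3.80 and 3.47 in PDGFRα reporter- libraries. Both PDGFRα reporter+ libraries were below both PDGFRα reporter- libraries, which was the case for 1 of the 10 members and for 8.1% of all genes tested, and 0 of 10 members lay the other way, against 7.59% of all genes. The means were 3.27 ± 0.13 and 3.63 ± 0.23 (SD, n = 2 each). The log2 fold change was -0.36 ± 0.19 (SE), 1.29-fold lower on the linear scale, with a 95% interval of -0.86 to 0.13, and it did not pass the limma test (adjusted p = 1). The difference was -0.43 within 2# and -0.29 within 3#. The count of members with the populations apart in this direction turned on single libraries. Without the PDGFRα reporter+ library 3#, it was 9 of 10, against 30.4% of all genes, and without the PDGFRα reporter+ library 2# it was 2 of 10, against 29.7%. Without the PDGFRα reporter- library 2# it was 4 of 10, against 32.5% of all genes, and without the PDGFRα reporter- library 3# it was 3 of 10, against 25.8%. In the other direction it was 4 of 10 without the PDGFRα reporter+ library 2#, against 30.6% of all genes.

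*Dusp4* encodes MKP-2, a nuclear phosphatase of ERK and related kinases. The gene (chr8:34807297-34819894, + strand) was -0.34 and 1.14 in the PDGFRα reporter+ libraries 2# and 3# and 0.13 and 1.84 in the PDGFRα reporter- libraries. The PDGFRα reporter- library was the higher of each number, by 0.47 in 2# and 0.70 in 3#, but the gap between the numbers was larger, and the populations overlapped. The means were 0.40 ± 1.05 and 0.99 ± 1.21 (SD, n = 2 each), and the log2 fold change was -0.58 ± 0.79 (SE). The phosphatase genes were thus both lower in PDGFRα reporter+ cells within each number, and neither difference was past the test.

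The PEA3 factors ETV1, ETV4 and ETV5 bind ETS sites and carry FGF signals to their targets. *Etv5* (chr16:22381309-22439719, - strand) was 2.85 and 4.07 in the PDGFRα reporter+ libraries 2# and 3# and 3.12 and 3.87 in the PDGFRα reporter- libraries. Both libraries 3# were above both libraries 2#, and the populations overlapped, with a log2 fold change of -0.03 ± 0.50 (SE). *Etv1* (chr12:38779380-38870484, + strand) was 0.88 and 1.69 against 1.29 and 1.56, with a log2 fold change of -0.14 ± 0.35 (SE). For *Etv1* and *Etv5* the PDGFRα reporter+ library had the lower value in 2# (-0.42 and -0.27) and the higher value in 3# (0.13 and 0.20). *Etv4* (chr11:101769742-101785371, - strand) was -2.01 and -0.57 in the PDGFRα reporter+ libraries and -1.41 and -0.06 in the PDGFRα reporter- libraries. It had the order of the libraries seen for *Dusp4* and *Spry4*, lowest in PDGFRα reporter+ 2# and highest in PDGFRα reporter- 3#. The *Etv4* difference was -0.60 within 2# and -0.51 within 3#, for a log2 fold change of -0.55 ± 0.75 (SE).

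Between the populations, 0 of the 10 members passed limma at an adjusted p of 0.05, as did 0% of the 14415 genes tested, and adjusted p = 1 for each member. At an unadjusted p of 0.05 the count was also 0 of 10, against 0.909% of all genes (131). An exact two-sided permutation test of 1 gene can give no p below 0.333 with 2 libraries in each population. All 10 members had a lower value in the PDGFRα reporter+ library 2# than in the PDGFRα reporter- library 2#, where 49.7% of all genes did. In the libraries 3#, 5 of 10 were lower, where 53% of all genes were. *Spry2*, *Spry4*, *Dusp4*, *Dusp6* and *Etv4* were lower in both numbers, which makes 5 of 10 against 24.8% of all genes. No member was higher in both, against 22.1% of all genes. The median log2 difference of the members was -0.42 in 2# and -0.01 in 3#, and 0.00 and -0.02 over all genes. The median of their log2 fold changes was -0.25, and that of all genes 0.00. It was -0.13 with a pseudocount of 1 and -0.14 over the 7 members with a mean of at least 0. Without the PDGFRα reporter+ library 2#, 3 of 10 members had a negative log2 fold change and the median was 0.16, and without the PDGFRα reporter- library 3# these were 5 of 10 and 0.03. The 10 genes respond to one pathway and were read in the same 4 libraries, so they are not independent of each other.

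**Figure D2:**
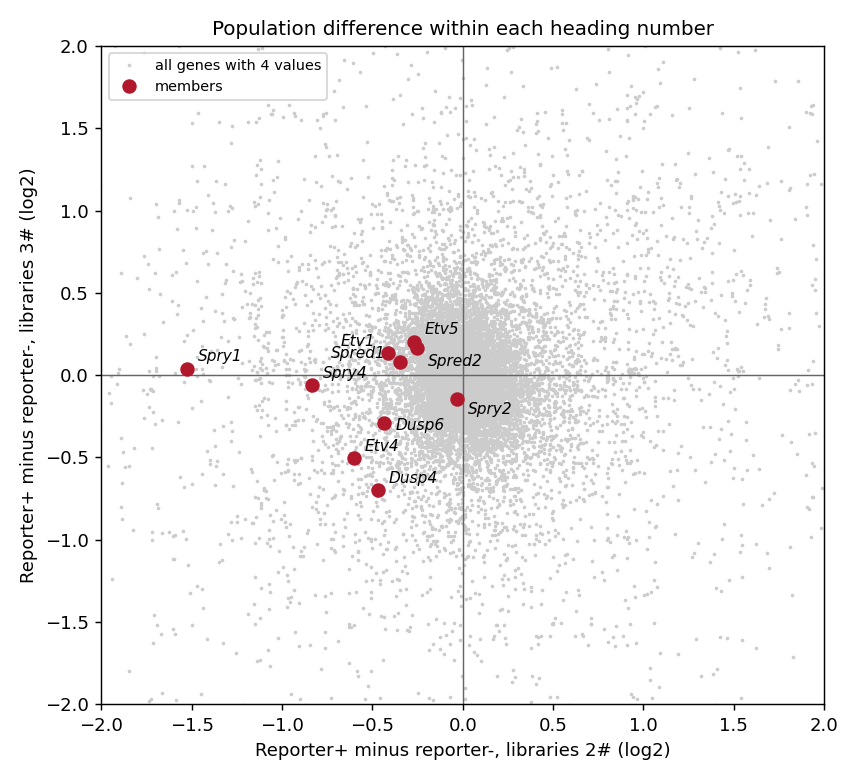
PDGFRα reporter+ minus PDGFRα reporter- (log2) in the libraries 2# (horizontal axis) and 3# (vertical axis) for the members (red) and all genes with 4 values (grey), with both axes shown from -2 to 2 (384 genes lie outside). All 10 members lie to the left of 0 on the horizontal axis, from -1.52 for *Spry1* to -0.03 for *Spry2*, and 5 of them lie below 0 on the vertical axis.

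For 8 of the 10 members, the exceptions being *Spred1* and *Dusp6*, the difference between the heading numbers was larger in size than that between the populations, as it was for 75.7% of all genes. Both libraries 3# were above both libraries 2# for 6 of 10 members, *Spry1*, *Spry4*, *Dusp4*, *Etv1*, *Etv4* and *Etv5*, against 36.4% of all genes, and below them for 1 of 10, *Spry2*, against 28.8% of all genes. On the log2 scale the mean of the libraries 3# minus that of the libraries 2# was 2.83 for *Spry1*, 1.59 for *Dusp4*, 1.41 for *Spry4*, 1.40 for *Etv4*, 0.98 for *Etv5* and 0.54 for *Etv1*. It was 0.17 for *Spred2*, -0.09 for *Spred1*, -0.26 for *Dusp6* and -0.33 for *Spry2*. All PEA3 genes were in the first group, while each of the Sprouty and phosphatase families was split. The median over the members was 0.76, and 0.05 over all genes. In PDGFRα reporter+ cells alone it was 1.01 and in PDGFRα reporter- cells alone 0.50, against 0.05 over all genes in both. What the numbers stand for is not given in the sources used here, so these are values of 4 libraries with no test.

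Among other genes that ERK induces, the direction between the numbers was mixed. Of the 15 other ERK targets, all with 4 values, 8 had both libraries 3# below both libraries 2# and 5 had them above. The shares of all genes were 28.8% below and 36.4% above, and the median of the list was -0.61. Among immediate early genes, named here after their values were seen, *Egr1* lay between 3.84 and 4.37 in the libraries 2# and between 1.75 and 2.46 in the libraries 3#. *Fos* had log2 values of 2.57 and 2.98 in 2# and 1.13 and 0.97 in 3#, for PDGFRα reporter+ and PDGFRα reporter- cells. *Egr2* and *Egr3*, of the same family as *Egr1*, lay the other way, at -4.27 and -3.51 in 2# and -3.40 and -1.97 in 3# for *Egr2*, with a difference of 1.21, and 1.01 for *Egr3*. *Dusp1*, an early phosphatase gene that stress also induces, was 5.11 and 5.50 in 2# and 2.94 and 2.73 in 3#, a difference of -2.47. Of the 13 family relatives of the members with 4 values, 10 had both libraries 3# below both libraries 2# and 2 had them above. The same shares of all genes, 28.8% and 36.4%, apply.

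**Figure D3:**
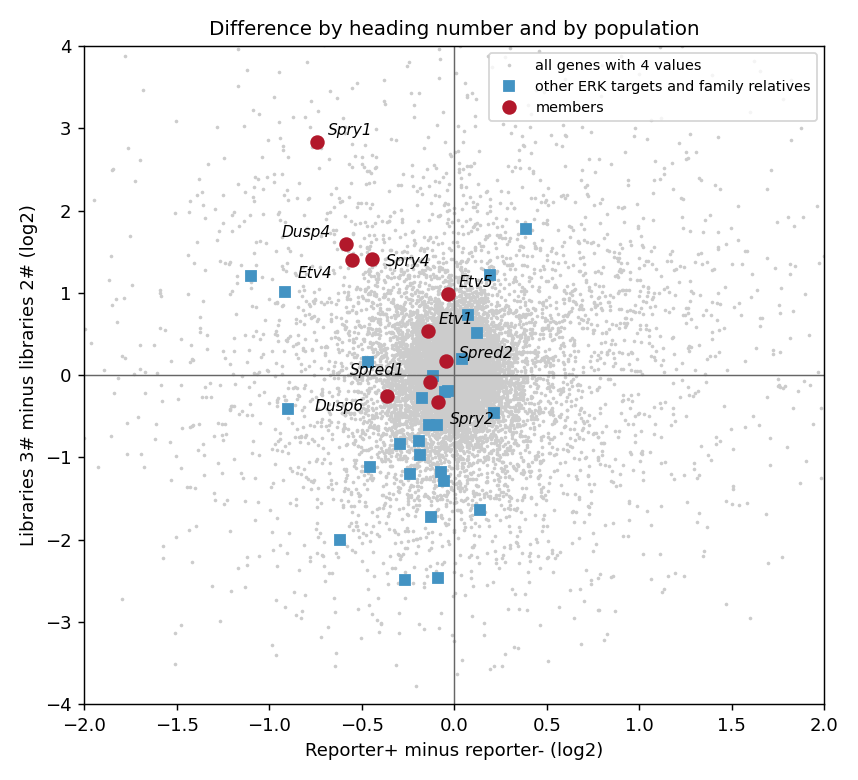
Libraries 3# minus libraries 2# (vertical axis, log2, shown from -4 to 4) against PDGFRα reporter+ minus PDGFRα reporter- (horizontal axis, log2, shown from -2 to 2) for the members (red), the other ERK targets and family relatives (blue) and all genes with 4 values (grey, 124 genes outside the axes). The members reach 2.83 upward at *Spry1*, whereas *Dusp1* is at -2.47.

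The rest of the pathway was read from lists of its genes. No gene of the 4 lists passed the limma test between the populations, which was fitted without a block. Of the 9 FGF ligands and receptors with 4 values, 4 had a positive and 5 a negative log2 fold change, with a median of -0.01. In 7 of 9 both libraries 3# were above both libraries 2#, against 36.4% of all genes. *Fgfr1*, which encodes a receptor for FGF2, was 4.38 and 4.95 in the PDGFRα reporter+ libraries 2# and 3# and 4.50 and 4.97 in the PDGFRα reporter- libraries. Its log2 fold change was -0.07 ± 0.28 (SE). *Fgfr2* had the highest log2 fold change of this list, 0.42 ± 0.72 (SE), with 0.88 and 2.14 against 0.26 and 1.91.

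Of the ligand genes, *Fgf2* itself was 2.85 and 3.85 in the PDGFRα reporter+ libraries 2# and 3# and 3.17 and 4.03 in the PDGFRα reporter- libraries, higher in both libraries 3#. *Fgf7*, a ligand for the epithelial form of FGFR2, was 5.20 and 5.69 against 5.77 and 5.13, with a log2 fold change of -0.01 ± 0.30 (SE). *Fgf10*, a ligand of the same receptor form, had the lowest log2 fold change of the list among genes whose mean is 0 or more, -0.34 ± 0.74 (SE). *Fgf21* had no value in any library, *Fgf5* had values only in the PDGFRα reporter- libraries (-4.10 and -4.39), *Fgf9* only in the PDGFRα reporter+ libraries (-6.72 and -7.68), and *Fgfr4* only in the libraries 2# (-5.22 and -4.27). All of these values are below the lower quartile of the libraries.

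The RAS-ERK cascade had small medians, with genes in both directions. All 25 genes had 4 values, 9 with a positive and 16 with a negative log2 fold change, and their median was -0.04. The median of the 3# minus 2# differences was 0.02. *Shc1*, an adaptor at the receptor, was 5.55 and 5.38 in the PDGFRα reporter+ libraries and 5.59 and 5.48 in the PDGFRα reporter- libraries. *Hras*, a RAS gene, had the lowest log2 fold change, -0.24 ± 0.19 (SE), and *Rps6ka3*, which encodes the ERK substrate RSK2, had the highest, 0.17 ± 0.22 (SE). Among the family relatives, 3 had a positive and 10 a negative log2 fold change, from -0.46 ± 0.61 (SE) for the phosphatase gene *Dusp5* to 0.22 ± 0.28 (SE) for the ETS gene *Ets2*. *Spry3* had no value, and *Dusp2* had none in the PDGFRα reporter+ library 3#.

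Of the other ERK targets, 4 had a positive and 11 a negative log2 fold change, with a median of -0.19, and 2 of the 15 had both PDGFRα reporter+ libraries below both PDGFRα reporter- libraries, where 8.1% of all genes did. *Ccnd1*, which encodes the G1 cyclin D1, was 4.95 and 4.72 in the PDGFRα reporter+ libraries 2# and 3# and 6.03 and 5.43 in the PDGFRα reporter- libraries. Both PDGFRα reporter+ libraries were below both PDGFRα reporter- libraries. Its log2 fold change of -0.90 ± 0.25 (SE) was the lowest of the list among genes whose mean is 0 or more. It did not pass limma over all genes (adjusted p = 1). With the heading number as a replicate block, an alternative only, *Ccnd1* was called (limma adjusted p = 0.0437). The difference was -1.09 within 2# and -0.71 within 3#. *Phlda1* had the highest log2 fold change among such genes, 0.19 ± 0.60 (SE). *Errfi1*, which encodes an inhibitor of the EGF receptor, was 7.21 and 6.95 against 7.69 and 6.74.

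**Figure D4:**
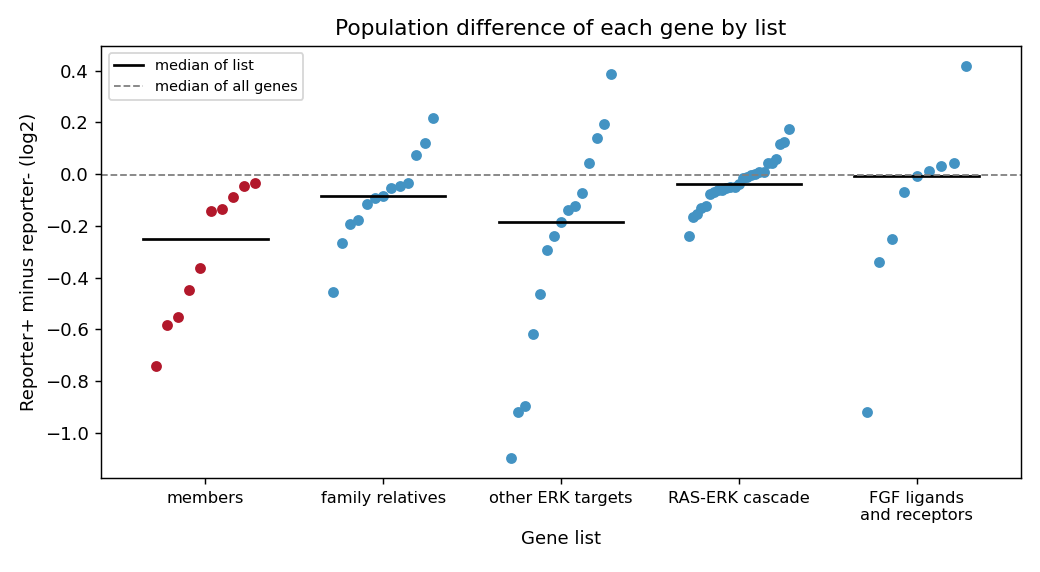
Log2 fold change between the populations (vertical axis) of each gene with 4 values in the members (red) and the other lists (blue), with the median of each list as a black line and the median of all genes as a dashed line. The medians are -0.25 for the members, -0.09 for the family relatives, -0.19 for the other ERK targets, -0.04 for the cascade and -0.01 for FGF ligands and receptors.

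Markers of other cells were summed in the same libraries. In 5 of the 10 macrophage markers, both PDGFRα reporter+ libraries were above both PDGFRα reporter- libraries, against 7.59% of all genes. Their summed linear level was 233 and 278 in the PDGFRα reporter+ libraries 2# and 3#. For the 10 markers in the PDGFRα reporter- libraries this sum was 93.9 and 179. Most of this sum is one gene, *Lyz2*, at 82.0% to 85.9% of it. The sum of the 8 smooth muscle and pericyte markers was 7.05 and 27.0 in the PDGFRα reporter+ libraries and 25.6 and 41.5 in the PDGFRα reporter- libraries. In 4 of these 8, both PDGFRα reporter+ libraries were below both PDGFRα reporter- libraries, against 8.1% of all genes.

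The 5 chondrocyte markers summed to 284 and 253 in the PDGFRα reporter+ libraries 2# and 3# and 148 and 190 in the PDGFRα reporter- libraries, of which *Comp*, also a gene of tendon and fibrous tissue, made up 89.8% to 98.9%. *Col2a1*, the collagen of cartilage, was 2.86 and -1.33 against 3.32 and 1.23, so it was low in both libraries 3#. The 8 endothelial markers summed to 2.64 and 3.21 against 3.19 and 6.30, with *Egfl7* at 38.8% to 88.0% of the sum. Of the 7 endothelial markers with 4 values, 4 had both PDGFRα reporter+ libraries below both PDGFRα reporter- libraries, against 8.1% of all genes. *Pecam1* was among them, at -4.68 and -4.79 against -1.99 and -1.11. The 6 Schwann cell markers summed to 3.51 and 1.32 against 4.24 and 2.68. The 7 skeletal muscle markers summed to 0.585 and 0.332 against 2.40 and 0.734. *Acta1* and *Des* were the ones of these with 4 values, while *Pax7* and *Myf5* had no value in any library. In both genes the PDGFRα reporter+ libraries were below both PDGFRα reporter- libraries, against 8.1% of all genes. *Des* is also among the smooth muscle and pericyte markers and is counted in both lists. The 5 erythroid markers summed to 0.0672 and 0.0563 against 0.171 and 0.0954. *Klf1* was the one with 4 values, -5.13 and -5.02 against -2.55 and -3.39, and *Hbb-bs* and *Alas2* had no value in any library. *Acta2*, *Tagln* and *Cnn1*, 3 of the 8 smooth muscle and pericyte markers, had the same order of the libraries as *Dusp4*. So did *Tek*, 1 of the 7 endothelial markers with 4 values, and *Pdgfrb* and *Postn*, 2 of the 10 stromal markers. *Lyz2*, *Adgre1*, *Tyrobp* and *Mrc1*, 4 of the 10 macrophage markers, had the reverse of the order of *Dusp6*. The share of all genes with either order was not counted, so these matches cannot be set against it and link no cell type to a member. For 75.7% of all genes the difference between the numbers was larger in size than that between the populations. The part of these cells in the differences of the members was not tested.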

How the data were processed

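The authors deposited one table of log2 values, with 1 value per gene symbol and library. The quantiles of the libraries were checked and were equal. The submitters' processing notes name bcl2fastq 2.17.1.14, Partek 7.0 and GRCm38.p6. The aligner, counting, annotation and filters are not given in the sources used here. The columns show the population and a number, so libraries were assigned to populations only. The 10 members and the lists were chosen with earlier results of these data known.

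Tests ran over the 14415 genes that had 4 values, in limma 3.58.1 under R 4.3.3 (linear model, eBayes with a trend, no block, two-sided), with Benjamini-Hochberg adjustment over all of them and a threshold of 0.05. The code of the model was checked on simulated data with large known differences and libraries drawn independently. That check does not bear on differences as small as those of the members or on libraries that share a number. Differences within a number and between numbers are values with no test. Named genes are all 10 members and *Pdgfra*, and from each other list the genes with the highest and lowest log2 fold change (of those whose mean is 0 or more), the highest mean and any gene called, with *Fgfr1*, *Fgfr2*, *Fgf2* and *Fgf7* always. Other genes were named after their values were seen. Marker sums add the linear values, blanks as nothing. Alternatives were a replicate block, pseudocounts of 1 and 0.1, a filter at a mean of 0, blanks at the lowest value, centring on the median or on genes with a mean of at least 2, eBayes without a trend, and leaving out each library. Positions are from GENCODE M21 (GRCm38), found for all 10, and sequences from RefSeq. Summaries used Python 3.11.15, numpy 2.4.6 and pandas 2.3.3, and plots matplotlib 3.10.9.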

Additional observations from a re-analysis of the deposited data

How the results depend on the processing

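No member was called in any of the 12 alternatives (lowest adjusted p = 0.512, limma). Of the 8 that kept every library, the pseudocounts and centrings can change a fold of these genes, and under them all 10 were below 0. In the leave-one-out settings only *Dusp6* stayed below 0. The leave-one-out ranges were -0.53 to -0.20 for *Dusp6*, -2.55 to 1.06 for *Spry1*, -0.28 to 0.10 for *Spry2*, -1.34 to 0.45 for *Spry4*, -0.29 to 0.019 for *Spred1*, -0.23 to 0.14 for *Spred2*, -1.44 to 0.27 for *Dusp4*, -0.55 to 0.26 for *Etv1*, -1.28 to 0.17 for *Etv4* and -0.64 to 0.57 for *Etv5*. Members with every remaining PDGFRα reporter+ value below every PDGFRα reporter- one ranged from 2 to 9 over these settings, where 25.8% to 32.5% of all genes did. Those above ranged from 0 to 4. The 4 were found without PDGFRα reporter+ library 2#, where 30.6% of all genes lay above. In the other leave-one-out settings the share of all genes above was not counted. The median of the members ranged from -0.60 to 0.16, above 0 without PDGFRα reporter+ library 2# or PDGFRα reporter- library 3#. *Ccnd1* had an unadjusted limma p of 0.0203, from 8.18e-05 to 0.0447 in the 8 settings with every library. The leave-one-out settings leave 1 library in a population, so p-values there cannot show whether *Ccnd1* depends on single libraries. A pseudocount of 1 moved the median of the members from -0.25 to -0.13, with *Spry1* at -0.15, *Etv4* at -0.18 and *Spry4* at -0.25, and the filter at a mean of 0 left 7 of 10 with a median of -0.14. Depth and counting error are unknown.

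Deviations from the population mean correlated at 0.681 across 14415 genes between libraries of one heading number. There are 2 such pairs and no label explains the number, so the replicate block is an alternative only. With the replicate block, 0 members were called and 2, *Dusp4* and *Dusp6*, had an unadjusted p under 0.05, where limma called 29 of all 14415 genes and 913 had such an unadjusted p. Of the other lists, 1 gene was called with the block, *Ccnd1* (limma adjusted p = 0.0437, against 0.999 to 1 in the other settings). The counts of members at unadjusted p, of members lower in each number and the unadjusted *Ccnd1* p-values were chosen after seeing the data.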
